A study of Mus musculus with 18 samples.

Results

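CLK ChIP on MNase-digested chromatin from mouse liver was compared between ZT06 and ZT22. The libraries were chosen by their titles, which name the chromatin, the mouse number and the time. They are 6 of the 18 libraries of the series, 3 at ZT06 and 3 at ZT22, with mouse numbers 28, 29 and 30 at each time. All came from livers of adult C57BL/6 mice, 3 to 6 months old, without any genetic change named in the labels and kept in 12 h of light and 12 h of darkness. ZT, zeitgeber time, counts hours from lights on, so ZT06 lies in the light phase and ZT22 late in the dark phase. Livers were crosslinked with formaldehyde, nuclei were purified, and chromatin was digested with MNase and immunoprecipitated with a goat polyclonal antibody against CLK. The series also holds 6 CLK ChIP libraries and 6 inputs of sonicated chromatin with the same mouse numbers and times. The inputs are used below as a background with the limit that they were sheared differently. Inputs of MNase-digested chromatin were not analysed here, so a dip or shoulder in the ChIP cannot be told apart from one already present in the digested chromatin.

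CLK and BMAL1 form the activating dimer of the circadian clock and bind E-box elements in the promoters and enhancers of clock genes and of many liver output genes. In liver, the binding of the dimer to DNA is known to rise during the light phase and to be low late in the dark phase. DNA wrapped around a histone octamer is protected from MNase, whereas linker DNA is cut, so nucleosome-length fragments mark protected stretches. A transcription factor that is crosslinked to a nucleosome, or to DNA next to one, can carry that nucleosome into the immunoprecipitate. Per the series design text the sequenced inserts were about 147 bp, the length of DNA in a single nucleosome.

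Each library is described by 2 mean profiles of deposited signal at successive positions across 3 kb. The first is over 3216 CLK:BMAL1 sites ("all sites"), and the other is over a set named as the top 400 ("top sites"). Positions are given as bp from the midpoint of the site, negative to the left, at an implied spacing of 10 bp. The middle position was taken as the midpoint, and this centring is implied too. The windows were the centre within 100 bp of the midpoint, the shoulders 150 to 300 bp away, the stretch 400 to 600 bp away, and the flanks at least 1000 bp away. Dip depth means the log2 ratio of centre to shoulders. At all positions of the top-site profiles the values were whole multiples of 1 step per library, within 0.25 of a step. This gives an estimate of the number of fragments behind a position. Over all sites an average flank position rested on 39691 to 48743 fragments, and a single position had a counting SD of 0.453 to 0.502%. At the top sites this SD was 1.25 to 1.39%. ZT22 mouse 30, the library whose profile stood apart most, had the most fragments per flank position of the 6. This is a count at these sites and not the depth of the whole library. These errors cover counting only, and fragments are shared between neighbouring positions.

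**Figure D1:**
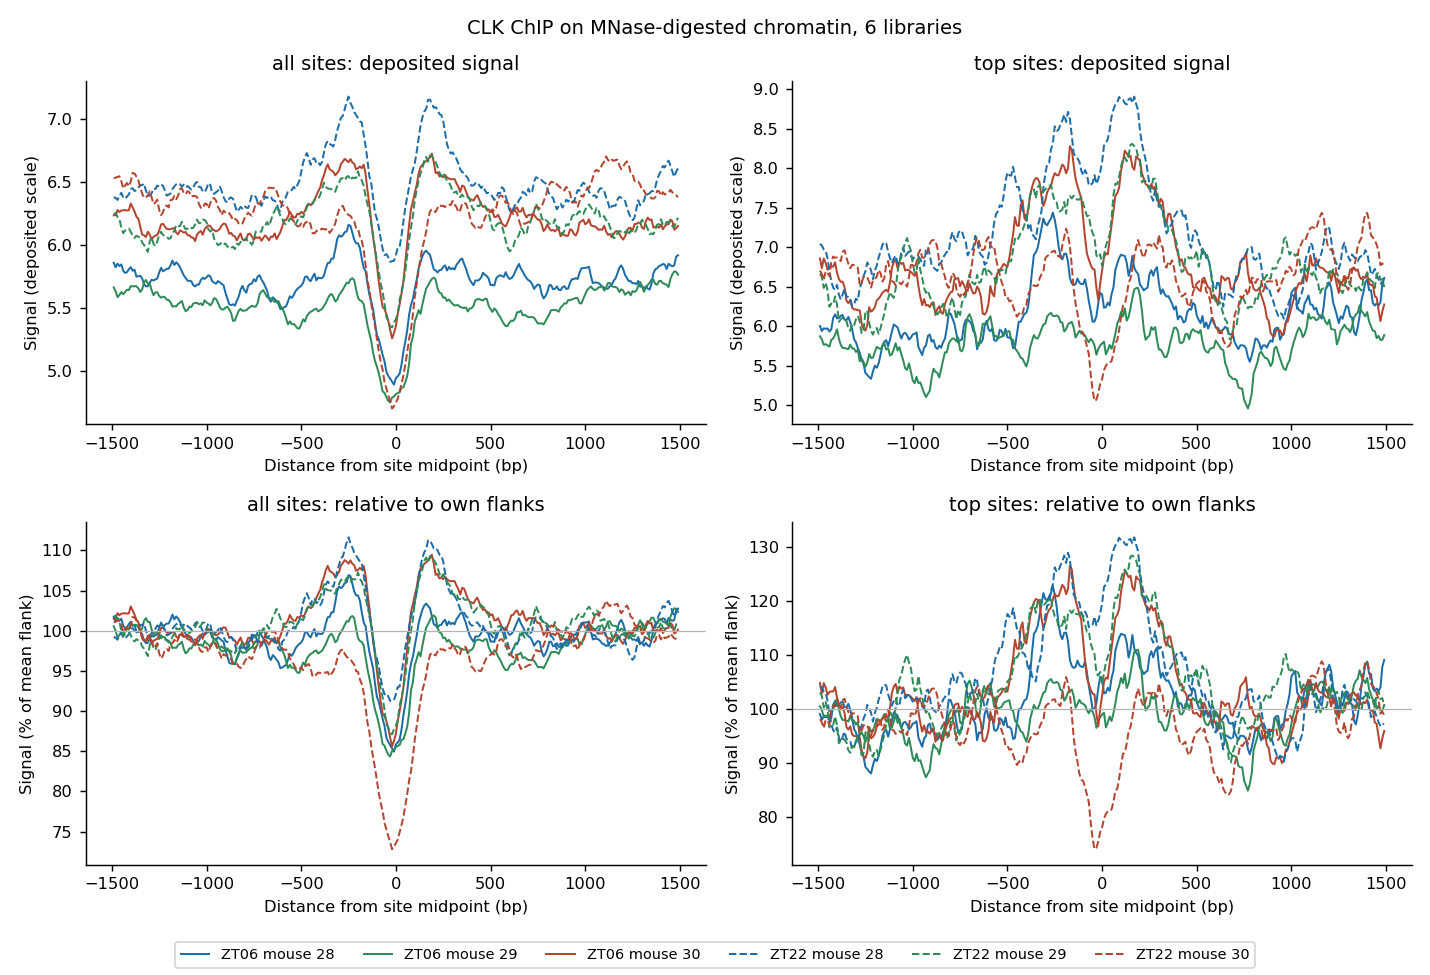
Signal (upper row, deposited scale; lower row, percent of the mean of the library's own flanks) against distance from the site midpoint in bp, for all sites (left) and top sites (right). Each line is 1 library, solid for ZT06 and dashed for ZT22, coloured by mouse number. A central dip between shoulders was present in all 6 libraries over all sites, and ZT22 mouse 30 had the deepest dip and shoulders below its flanks (-4.01%).

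Over all sites, CLK ChIP fragments of nucleosome length were depleted at the middle of the sites and slightly enriched beside it, at both times. At ZT06 the centre was 12.8%, 12.3% and 13.8% below the shoulders in mice 28, 29 and 30. At ZT22 it was 12.3%, 12.99% and 19.1% below them. Of the 6 values, 5 fell between 12.3% and 13.8%, and the exception was ZT22 mouse 30. The mean was 12.98% ± 0.75 (SD, n = 3) at ZT06 and 14.8% ± 3.76 (SD, n = 3) at ZT22, and the ranges overlapped. The counting error of a single-position log2 ratio was 0.010 to 0.011, well under the distance of ZT22 mouse 30 from the others. On the log2 scale dip depth differed by 0.03 ± 0.04 (SE) between the times, with ZT22 deeper (exact two-sided permutation test, p = 0.7, adjusted p = 1). With 3 libraries a time this test cannot go below 0.1. The exact tests form 1 family of 16 with Benjamini-Hochberg adjustment, including 2 of the undulation period that are limited by the range of periods tried.

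The dip varied much less than its level against the flanks. The centre differed from the flanks by -10.3%, -12.5% and -7.255% at ZT06 in mice 28, 29 and 30. At ZT22 the values were -4.60%, -7.15% and -22.4%. ZT22 thus held both the smallest and the largest depletion, and the ZT06 libraries lay between them. On the log2 scale the centre against the flanks was higher at ZT06 by 0.03 ± 0.10 (SE; exact permutation test, p = 1, adjusted p = 1). Without ZT22 mouse 30 the difference turned to -0.07.

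The shoulders stood a few percent over the flanks in 4 libraries. Relative to the flanks they were at 2.87%, -0.186% and 7.59% at ZT06 in mice 28, 29 and 30. At ZT22 they were at 8.77%, 6.72% and -4.01%. The order of the libraries was nearly that of the centre, and neither time was set apart from the other. The log2 difference between the times was -0.0041 ± 0.06 (SE; exact permutation test, p = 1, adjusted p = 1).

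The positions of the dip and its shoulders were alike in the 6 libraries over all sites, apart from the right shoulder of ZT22 mouse 30. The lowest position, after a running mean over 5 positions, lay at -10, -30 and -20 bp at ZT06 and at -20, -20 and -10 bp at ZT22 in mice 28, 29 and 30. The left shoulder peaked at -250, -240 and -260 bp at ZT06 and at -250, -210 and -280 bp at ZT22. The right shoulder peaked at 160, 190 and 180 bp at ZT06 and at 190, 180 and 290 bp at ZT22. In 5 of the 6 libraries the left shoulder was therefore farther from the midpoint than the right one, and the lowest position was left of the midpoint in all 6. The axis about which each profile within 400 bp was most alike its mirror image lay left of the midpoint too, at -10 to -30 bp, with r of 0.95 or more between the sides. All these distances from the midpoint rest on the implied centring, and a shifted centring would move them alike. Measured from the lowest position, the shoulders were 230 ± 27.6 bp away on the left and 216.7 ± 44.1 bp on the right (SD, n = 6).

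Shoulder spacing, the distance from the left to the right maximum, was 410, 430 and 440 bp at ZT06 and 440, 390 and 570 bp at ZT22. The spread at ZT22 was set by mouse 30, and the other 5 values lay within 390 to 440 bp. The mean was 427 ± 15.3 bp at ZT06 and 467 ± 92.9 bp at ZT22 (SD, n = 3 each), a difference of -40 ± 54.4 bp (SE; exact permutation test, p = 0.8, adjusted p = 1). Without ZT22 mouse 30 it was 11.7 bp. The width of the dip midway between its floor and the shoulder maxima was 199.1, 220.3 and 173.8 bp at ZT06 and 210.8, 179.9 and 223.9 bp at ZT22. These values interleaved, with a difference of -7.16 ± 18.7 bp (SE; exact permutation test, p = 0.7, adjusted p = 1).

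**Figure D2:**
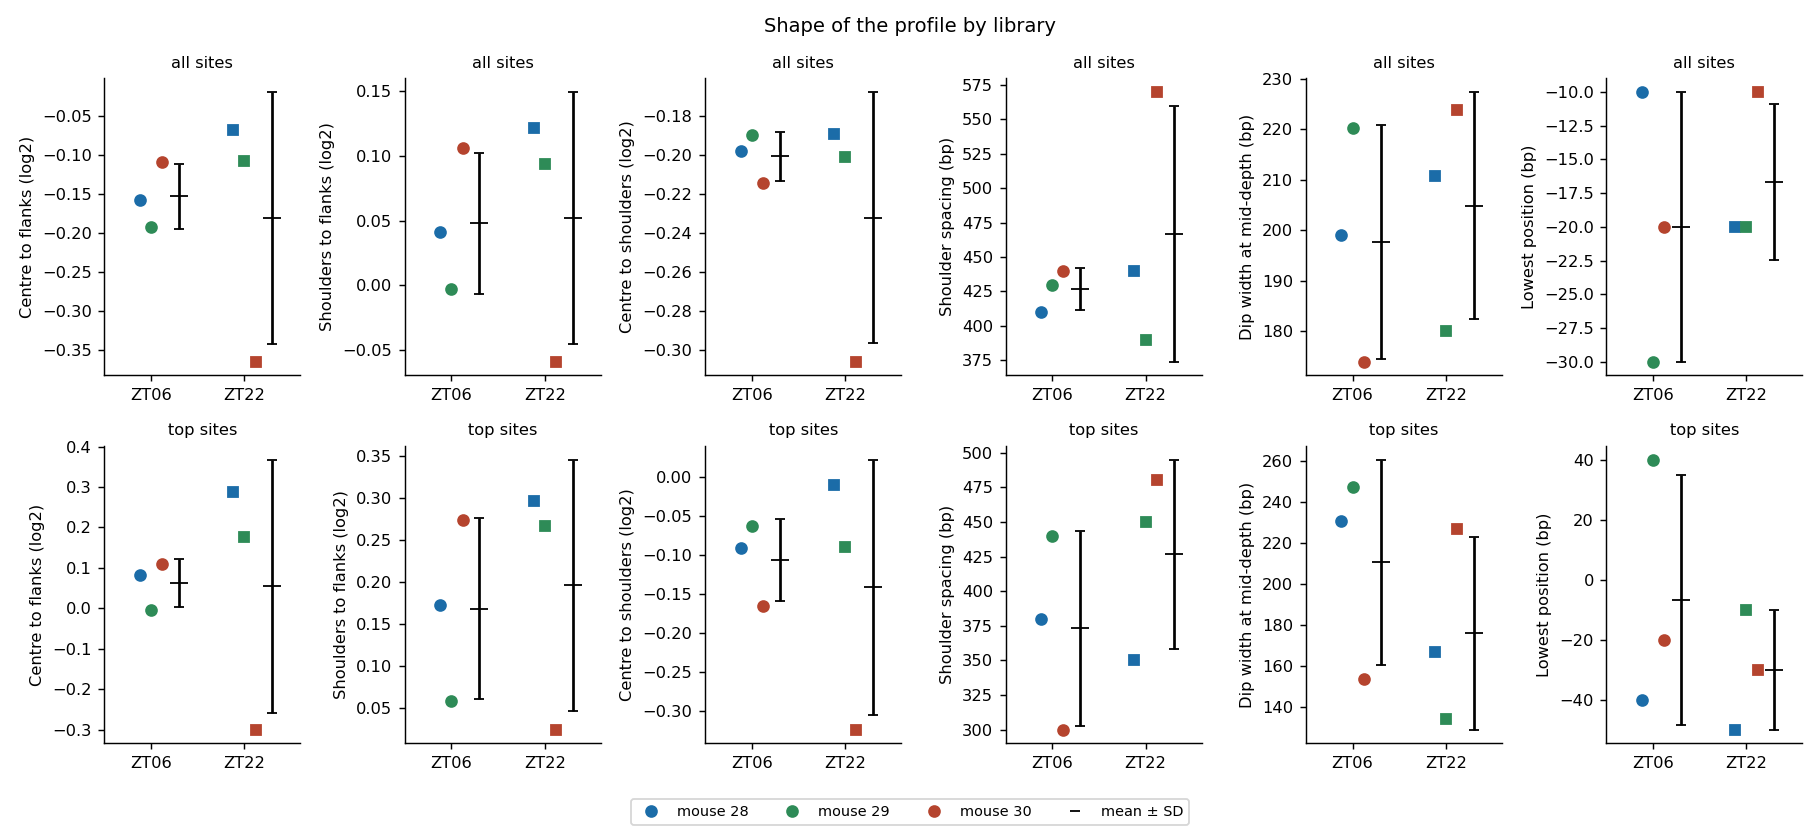
Shape measures of each library (points, coloured by mouse number) at ZT06 (circles) and ZT22 (squares), over all sites (upper row) and top sites (lower row); log2 ratios of the windows, and distances in bp; bars give the mean ± SD of 3 libraries. Points of the times overlap in every panel, and ZT22 mouse 30 holds the lowest ratios of centre to flanks and of centre to shoulders in both site sets.

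At the top sites the dip sat on a raised region. The whole central region was enriched in most libraries, and the dip within it was shallower and more variable. The centre was 6.07%, 4.26% and 10.8% below the shoulders at ZT06 in mice 28, 29 and 30. At ZT22 it was 0.685%, 6.02% and 20.1% below them. ZT22 held both extremes, and the 3 ZT06 values lay between them. In ZT22 mouse 28 the windows differed little. The log2 ratio of the lowest position to the mean of the shoulder maxima was -0.16 in that library and ran from -0.46 to -0.14 in the 6 libraries. This ratio sets a picked minimum against picked maxima, so it is negative for nearly any uneven profile and does not show a dip. A single-position log2 ratio had a counting error of 0.027 to 0.030 here, which does not cover that picking. In log2 terms, dip depth differed by 0.04 ± 0.10 (SE; exact permutation test, p = 0.9, adjusted p = 1), and by -0.06 without ZT22 mouse 30.

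Against the flanks, the centre of the top sites was at 5.86%, -0.293% and 7.85% at ZT06 and at 22.03%, 13.1% and -18.8% at ZT22. The shoulders were at 12.7%, 4.14% and 20.9% at ZT06 and at 22.9%, 20.3% and 1.7% at ZT22. Shoulders were above the flanks in all 6 libraries, whereas the centre was above them in 4. Neither measure separated the times: the log2 differences were 0.0074 ± 0.18 for the centre and -0.03 ± 0.11 for the shoulders (SE; exact permutation tests, p = 1 and p = 0.9, adjusted p = 1 for both). Without ZT22 mouse 30 the first became -0.17. Shoulder spacing was 380, 440 and 300 bp at ZT06 and 350, 450 and 480 bp at ZT22, a difference of -53.3 ± 56.5 bp (SE; exact permutation test, p = 0.4, adjusted p = 1). Dip width was 231.1, 247.4 and 153.9 bp at ZT06 and 166.8, 134.4 and 227.2 bp at ZT22, a difference of 34.7 ± 39.6 bp (SE; exact permutation test, p = 0.4, adjusted p = 1). It was 6.08 bp with the level taken from the shoulder window, and 13.8 to 63.1 bp without single libraries, the lowest without ZT22 mouse 29 and the highest without ZT06 mouse 30. The lowest position ranged from -50 to 40 bp, a wider scatter than over all sites, with far fewer fragments behind each position.

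Setting the top sites against the remaining 2816 sites of the same library shows where they gained signal. The log2 excess of the top sites in the centre was 0.36, 0.28 and 0.36 at ZT06 and 0.50, 0.42 and 0.17 at ZT22 in mice 28, 29 and 30. In the shoulders it was 0.23, 0.13 and 0.30 at ZT06 and 0.28, 0.29 and 0.19 at ZT22. In the flanks it was only 0.06 to 0.10. In the window means of every library the top sites thus had more signal than the rest, and of these windows the centre had the largest excess in 5 of 6 libraries. In ZT22 mouse 30 the shoulders gained slightly more than the centre, by 0.02. Among the remaining sites dip depth was -0.22, -0.21 and -0.22 at ZT06 and -0.22, -0.22 and -0.30 at ZT22, so without the top sites the 5 other libraries were nearly equal. The sources used here do not state how the top sites were chosen. That they form part of the larger set was assumed, and the values of the remaining sites rest on it.

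Position by position, no place in the profile passed the test between ZT06 and ZT22. With limma on log2(signal + 1), fitted to these 6 libraries alone, 0 positions had an adjusted p under 0.05 in either site set (0% called). The lowest adjusted p was 0.13 over all sites and 0.32 at the top sites. Before adjustment 80 positions over all sites (26.8%) and 33 at the top sites (11%) had a p under 0.05. The median change over the positions was -0.10 over all sites and -0.12 at the top sites, lower at ZT06. The change ran from -0.14 to -0.07 along the profile over all sites and from -0.21 to 0.0016 at the top sites. Over all sites the median was -0.08 in the centre, -0.10 in the shoulders and -0.10 in the flanks. The mean flank signal itself was 5.76, 5.635 and 6.15 at ZT06 and 6.43, 6.14 and 6.46 at ZT22 on the deposited scale, so only mouse 30 at ZT06 reached the ZT22 range. The sources used here do not state how libraries were scaled to each other.

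When each library was divided by the mean of its flanks, this shift went away, as it must for a shift that the flanks share. No position was called in either set (0%), and before adjustment 0 positions over all sites (0%) and 7 at the top sites (2.34%) had a p under 0.05. The median change was then 0.002 and -0.01. The SE of a change was larger in the centre, with a median of 0.07 over all sites and 0.13 at the top sites, than in the flanks, with 0.01 and 0.04. This scaling itself holds the flank SE low. The ZT22 libraries differed most in the centre, with an SD of centre to flanks of 0.16 over all sites against 0.10 for shoulders to flanks. The ZT06 libraries did not, with 0.04 against 0.05. On the deposited scale the 3 ZT06 values lay below the 3 ZT22 values at 97 positions over all sites (32.4%) and 71 at the top sites (23.7%), beside the 0% called with adjustment. None of the 21 central positions was among them. Relative to their own flanks, the ZT06 values lay below at 9 positions over all sites (3.01%) and above at 2 (0.669%), and at the top sites below at 22 (7.36%) and above at 5 (1.67%), again beside 0% called.

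**Figure D3:**
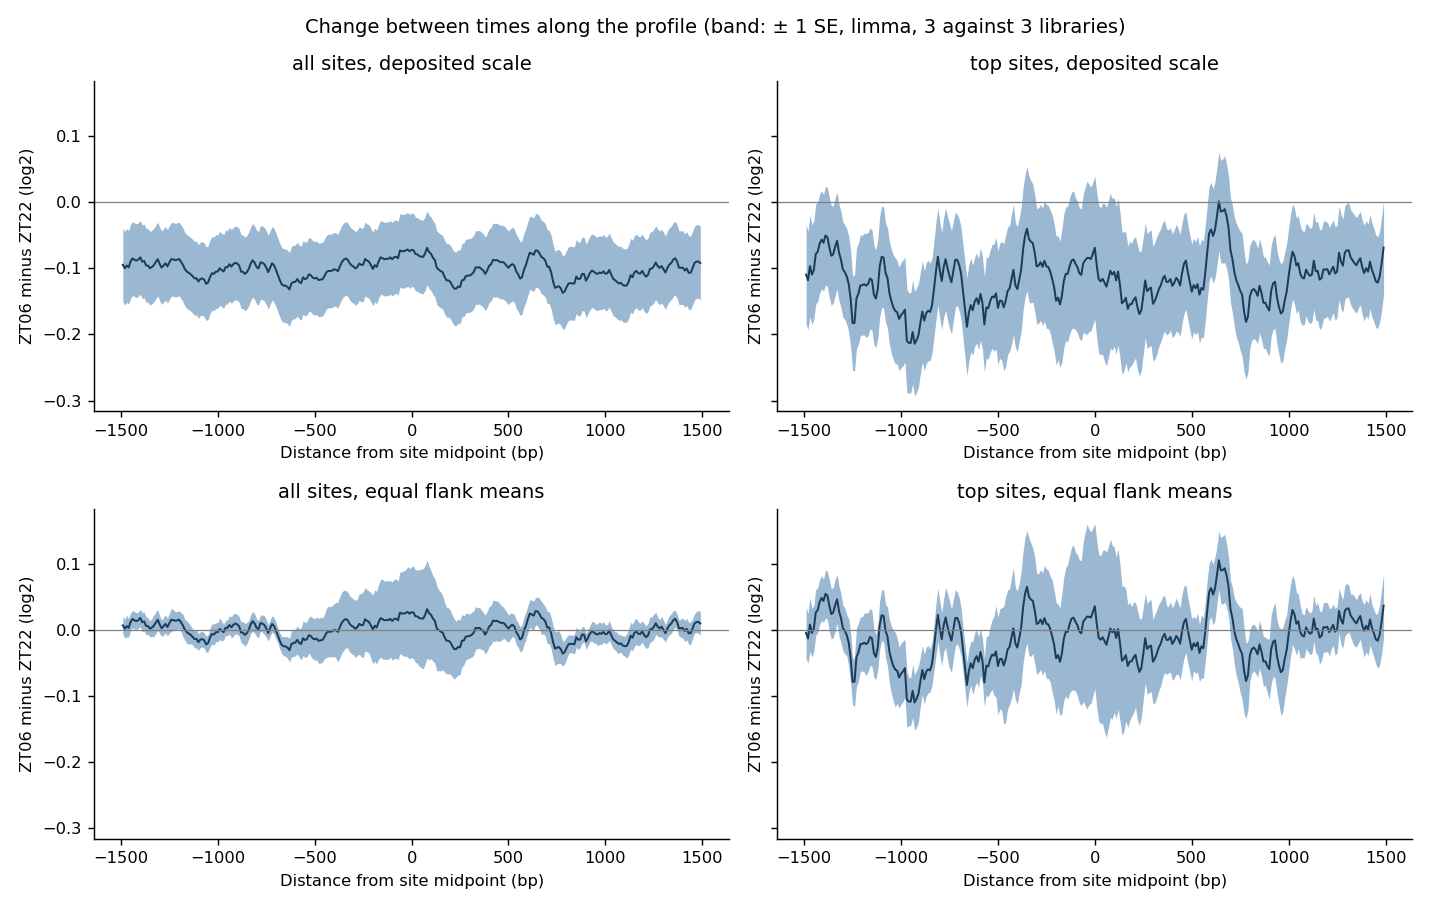
Log2 difference ZT06 minus ZT22 with a band of ± 1 standard error from limma (6 libraries) against distance from the site midpoint in bp, on the deposited scale and with equal flank means, for both site sets. On the deposited scale the line runs near -0.10 over all sites, with equal flank means it runs near 0, and no position was called on either scale.

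The counts on the deposited scale depended on mouse 30. Without its ZT06 library, 100% of the positions over all sites were called lower at ZT06. At the top sites 0% were called then, and 55.9% had a p under 0.05 before adjustment. Without mouse 30 at both times, 100% of positions over all sites and 67.9% at the top sites were called lower at ZT06. With equal flank means in addition, 33.8% over all sites and 0% at the top sites were called, those over all sites all lower at ZT06. In each of these fits over all sites limma used 1 common variance for all positions. The same held over all sites for the fit of all 6 libraries on the deposited scale. It also held at the top sites without mouse 30 at both times on the deposited scale. The p-values of those fits therefore carry little of the uncertainty that comes with so few libraries. With equal flank means, leaving out any single library gave no call in either set. Neighbouring positions share fragments, so these shares measure a length of the region and not independent differences.

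A single pattern held most of the differences among the 6 libraries once flanks were made equal. The first component of a singular value decomposition of their deviations from the mean profile took 87.4% of the variance over all sites, and the second took 6.43%. For the top sites the shares were 73.96% and 9.17%. The pattern was a broad central rise or fall without a dip: its loading, set to 1 in the centre, was 0.67 in the shoulders and 0.32 at 400 to 600 bp over all sites, and 0.59 and 0.35 at the top sites. It was highest at 60 bp and 70 bp and spanned 640 bp and 490 bp at 50% of its height, with a separate rise to the left of that span at the top sites. As a description across positions, which share fragments and are not replicates, its r with the mean profile of sonicated CLK ChIP at ZT06 was 0.92 over all sites and 0.89 at the top sites. With sonicated input r was 0.89 and 0.83, and with the mean MNase-digested profile itself -0.32 and 0.59. Sonicated ChIP and its input both peak at the centre of the sites, which these correlations share.

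The libraries' places along this pattern did not follow the time of day. Over all sites ZT22 mouse 30 was lowest, at -0.18, and ZT22 mouse 28 highest, at 0.09. Between them stood ZT06 mouse 29 at -0.06, ZT06 mouse 28 near 0, ZT22 mouse 29 at 0.07 and ZT06 mouse 30 at 0.08. At the top sites the ends were the same, at -0.32 and 0.20, and ZT06 mouse 30 and ZT22 mouse 29 traded places, at 0.11 and 0.14. The distance between profiles shows the same interleaving. The closest pair was ZT06 mouse 30 with ZT22 mouse 29, with a root mean square log2 difference of 0.02 over all sites and 0.07 at the top sites. The farthest pair was ZT22 mouse 28 with ZT22 mouse 30, with 0.12 and 0.23. The closest profiles thus came from different times and the most distant ones from the same time. ZT22 mouse 30 had the most fragments per flank position, 48743 over all sites, and 35483 at its lowest position, within the range of the other libraries.

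**Figure D4:**
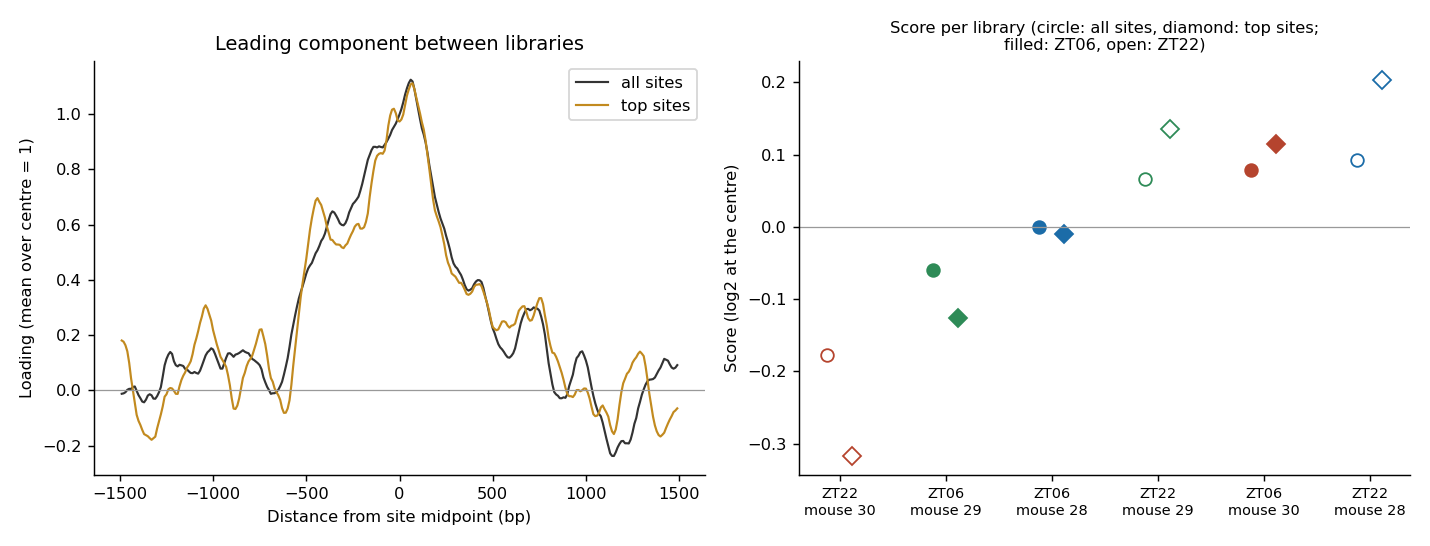
Left, loading of the leading component of the differences between libraries (mean over the centre set to 1) against distance from the site midpoint in bp, for both site sets; right, the score of each library in log2 units at the centre, in order of the score over all sites. The loading rises broadly around the centre, and the ZT06 scores lie between those of ZT22 mouse 30 and ZT22 mouse 28.

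Beyond the shoulders the profiles over all sites were nearly flat, whereas those of the top sites fell from raised shoulders. In both sets there were small undulations that libraries shared only in part. In the mean of the 6 libraries over all sites, the shoulders at -250 and 180 bp were at 5% and 4.76% relative to the flanks and the floor at -20 bp was at -15.0%. Outward of the shoulders the mean profile stayed between these, with minima of -1.59% at -590 bp, -2.77% at -850 bp and -1.74% at 600 bp. In the top sites the shoulders at -260 and 170 bp were at 14.9% and 17.3%. On the right the mean profile there was at 1.61% at 450 bp, and a minimum at 680 bp was at -6.32%. Beyond 300 bp, after a quadratic trend on each side was removed, the SD along the profile was 0.89 to 1.49% over all sites and 3.62 to 4.30% at the top sites. In every library this was larger than its counting SD given above.

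The best-fitting cosine of nucleosome scale took a small share of that variation. Since the best period is picked, nearly any uneven profile gives some share, which does not show a regular wave. A cosine with 1 period of 120 to 260 bp, fitted to both sides beyond 300 bp, had an amplitude of 0.81, 0.40 and 0.41% at ZT06 and 0.66, 0.55 and 0.79% at ZT22 over all sites in mice 28, 29 and 30. The best fit had 4.50, 4.61 and 4.78 waves per kb at ZT06 and 4.61 in mouse 28 at ZT22. In the other 2 libraries of ZT22 it fell on the longest period tried, 260 bp, and so is not a measured period. The first autocorrelation maximum of the detrended profile, a period read without a cosine, lay at 210, 180 and 190 bp at ZT06. At ZT22 it lay at 190, 160 and 170 bp in mice 28, 29 and 30. The fit took 8.23 to 21.7% of the detrended variance. In the mean profile of the 6 libraries the amplitude was 0.25% with 4.59 waves per kb, lower than in any single library. The first crest beyond 300 bp fell anywhere from 353 to 518 bp on the left and from 319 to 492 bp on the right. On the right, 3 of the 6 libraries had it at 319 to 323 bp, whereas on the left the crests were spread over the range. Between detrended profiles of different libraries r was -0.27 to 0.50, with a median of 0.19 over the 15 pairs. The left and right sides of 1 library, mirrored, had a median r of -0.05.

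The times did not differ in this fit over all sites beyond the spread of the libraries. Amplitude differed by -0.13 ± 0.15 percentage points (SE; exact permutation test, p = 0.6, adjusted p = 1). The cosine period differed by -29.7 ± 14.8 bp (SE, exact permutation test, p = 0.3). With 2 of the 3 ZT22 periods at the end of the range tried, this is not a measured difference in period. For the top sites the amplitude was 1.56, 1.42 and 1.12% at ZT06 and 1.90, 1.69 and 2.64% at ZT22. These were the only 2 groups of 3 values that did not overlap among the 14 shape comparisons of the times. The difference of -0.71 ± 0.32 percentage points (SE) had the smallest p that the exact permutation test allows, p = 0.1, with an adjusted p = 0.53. It was -0.42 without ZT22 mouse 30 and -0.30 without mouse 30 at both times. With a cubic trend it was -0.47, and with the fit from 500 bp outward -0.66. In both refits p was 0.2 (exact permutation tests), so there the groups overlapped. The best fit there had 3.89, 4.22 and 3.95 waves per kb at ZT06 and 4.07 and 4.50 in mice 28 and 29 at ZT22. ZT22 mouse 30 was again at the longest period tried, and its amplitude of 2.64% was fitted at that period. The same edge limits the period difference of 6.33 ± 12.7 bp (SE, exact permutation test, p = 0.7).

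Sonicated input, in which nucleosome boundaries are not expected to set the fragment ends, was given the same fit. Its amplitude over all sites was 1.62 ± 0.46% (SD, n = 6), from 1.21 to 2.44%, against 0.60 ± 0.18% (SD, n = 6) in the MNase-digested ChIP. In the top sites it was 3.89 ± 1.14% against 1.72 ± 0.52% (SD, n = 6 each). The ChIP was lower than the input of the same number and time in 6 of 6 pairs in both sets. The differences were -1.01 ± 0.22 and -2.17 ± 0.44 percentage points (SE; exact two-sided sign-flip tests, p = 0.031, which is the smallest for 6 pairs; adjusted p = 0.25 for both). The inputs had fewer fragments per position, with a counting SD of 0.80 to 0.99% over all sites and 2.23 to 2.83% at the top sites. The part of fragment number in this difference was not tested.

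**Figure D5:**
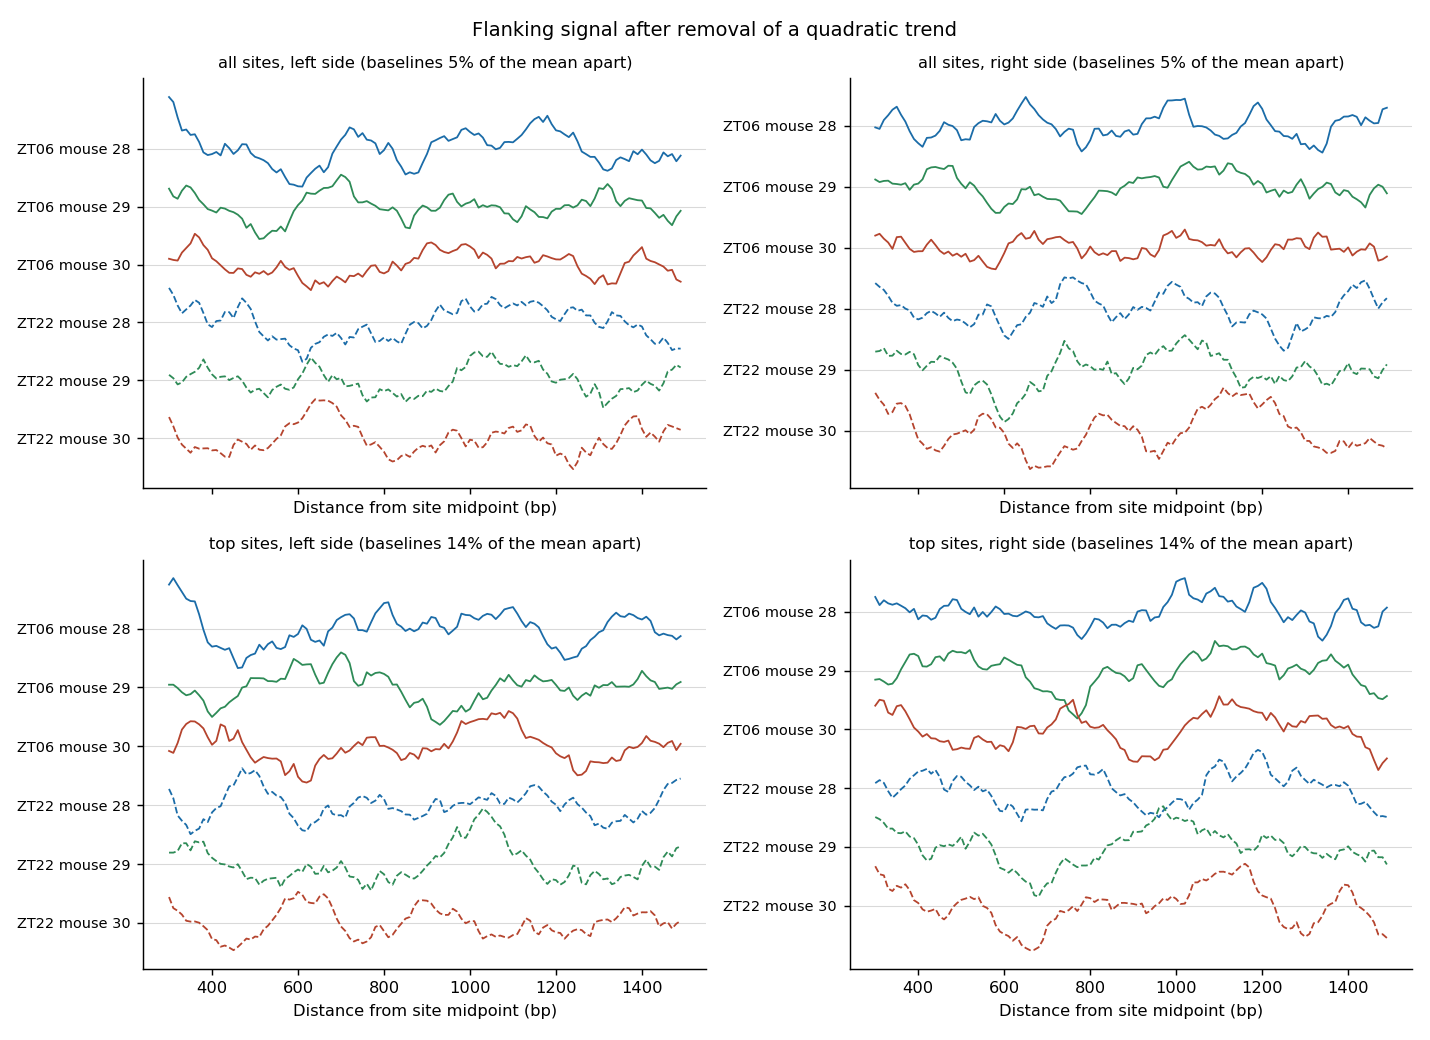
Signal from 300 bp outward after removal of a quadratic trend, in percent of the mean, against distance from the site midpoint in bp, by side and site set. Each line is 1 library on its own baseline (grey), baselines 5% apart over all sites and 14% apart at the top sites; crests and troughs line up only in part between libraries, with r of -0.27 to 0.50 over all sites.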

How the data were processed

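The authors deposited mean profiles in a unit of signal, 1 value per position, library and site set. Reads were processed with CASAVA 1.7 and Bowtie on mm9, per the submitters' processing notes. The sources used here do not state how fragments were extended, libraries scaled or sites called. The table has 52 profiles. Of these, 16 carry 1 of 8 names for which no sample was given; the names read as MNase-digested input, and these rows were left out. Groups came from titles. The series design text speaks of the same mice, without saying that a number is 1 animal at both times. Livers are counted separately for each time, and if the samples were not separate animals, p-values measure only the spread between these samples. Limma 3.58.1 (R 4.3.3) was fitted to log2(signal + 1) with a pseudocount of 1, positions called at an adjusted p under 0.05. Window ratios, shoulder maxima and cosine fits were computed with numpy 2.4.6 and compared by exact permutation tests. Shoulder spacing, lowest position, and cosine period and amplitude were tried on simulated profiles. The noise there was independent between positions and smaller than in these data. Window ratios and dip width were not tried on simulated profiles. No gene was named by rule, since profiles hold no genes. Members, windows and measures were chosen with earlier results of these data known. A step count was taken as whole within 0.25.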

Additional observations from a re-analysis of the deposited data

How the results depend on the processing

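Among all alternatives to the 18 results, 25 reversed a direction, 4 moved a share of called positions, and 12, all with 5 pairs against sonicated input, could no longer reach a p under 0.05. The others kept direction and call. Of the 14 shape comparisons of the times, 12 reversed at least once. Leaving out single libraries, the log2 difference ZT06 minus ZT22 ran for centre to flanks from -0.0652 to 0.0834 (all sites) and from -0.170 to 0.124 (top sites), for dip depth from -0.0056 to 0.0529 and from -0.0564 to 0.101, and for shoulders to flanks from -0.0596 to 0.0305 and from -0.114 to 0.0272. Shoulder spacing ran from -78.3 to 11.7 bp and from -91.7 to -16.7 bp, and dip width from -19.6 to 4.78 bp and from 13.8 to 63.1 bp. Undulation amplitude ran from -0.258 to -0.0561 and from -0.902 to -0.424 percentage points. Without mouse 30 at both times, in the same order, these were -0.0872 and -0.193, 0.0012 and -0.0268, -0.0885 and -0.167, 5 and 10 bp, 14.3 and 88.7 bp, and 0.00024 and -0.301. The share of positions called by limma over all sites was 0 to 100% without single libraries and 100% without mouse 30 at both times; for the top sites it was 0% and 67.9%. Against sonicated input the amplitude ran from -1.14 to -0.81 and from -2.36 to -1.85 percentage points, with p = 0.0625, the smallest an exact sign-flip test of 5 pairs allows. Across all alternatives together, the share of positions called by limma ran from 0 to 100% over all sites and from 0 to 67.9% at the top sites. The 67.9% was reached only without mouse 30 at both times. With shoulders at 100 to 250 bp, shoulders to flanks over all sites became 0.0017. The cosine periods of the times rest in part on values at the end of the range tried: their difference ran from -4 to 15 bp at the top sites, and over all sites the autocorrelation gave 20 bp, the opposite sign. At the top sites 2 libraries had no autocorrelation maximum and that alternative was not run. The replicate block called 0 positions in either set and left dip depth at 0.03 (all sites; exact sign-flip test, p = 0.5, 3 pairs). Deviations of equal numbers correlated at -0.02, -0.66 and -0.71 over all sites. None was over 0.1, but centred deviations with a single leading component cannot show whether the numbers are pairs. The numbers were not taken as pairs because no label says that they mark the same animal across times. Counting errors were computed for single positions and not for windows, so the part of counting in the window measures was not tested. Leaving out mouse 30 at both times, and equal flank means with libraries left out, were chosen after seeing the data.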
